A study of Mus musculus with 16 samples.

Results

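The 8 genes described here are Hmgcs1, Idi1, Fdps, Fdft1, Sqle, Lss, Cyp51 and Insig1. They were taken by symbol from the 55228 rows of the count table, and all 8 were present and passed the filter on low counts. Although the set was named for synthesis and uptake of cholesterol, 7 of its genes encode enzymes of synthesis, Insig1 encodes a regulator, and none encodes an uptake receptor. RNA came from mesenchyme of the lower urinary tract, taken from mouse embryos at embryonic day 16.5 that were wild type and of the outbred CD-1 stock. Bladder and pelvic urethra were taken from each sex, which gave 4 untreated groups of 4 libraries each. Each of the 4 litters gave 1 library to each group, made from the pooled tissue of that litter's embryos of 1 sex, after the epithelium had been loosened with trypsin and pulled away with forceps. A value over both sexes of a tissue (n = 8 libraries) therefore holds each litter once per sex.

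Cells build cholesterol from acetyl-CoA through mevalonate, isoprenoid diphosphates and squalene, which is closed into a ring and then trimmed to cholesterol. When sterol in the endoplasmic reticulum membrane is low, the escort protein SCAP carries SREBP2 to the Golgi, where proteases release its active part, and this part switches on most genes of the route. When sterol is plentiful, INSIG proteins hold SCAP and SREBP back, and INSIG1 is itself made under SREBP control. In embryos the sterol pathway also feeds hedgehog signalling, since hedgehog ligands carry cholesterol.

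The genes lie on separate chromosomes or far apart, and in GRCm38 they have these places. Hmgcs1 (ENSMUSG00000093930.2) is at chr13:119690379-119708260 on the plus strand and Idi1 (ENSMUSG00000058258.14) at chr13:8885501-8892451 on the plus strand. Fdps (ENSMUSG00000059743.12) is at chr3:89093588-89101959 on the minus strand and Fdft1 (ENSMUSG00000021273.10) at chr14:63145150-63179578 on the minus strand. Sqle (ENSMUSG00000022351.14) is at chr15:59315077-59331192 on the plus strand and Lss (ENSMUSG00000033105.12) at chr10:76531588-76557138 on the plus strand. Cyp51 (ENSMUSG00000001467.5) is at chr5:4081145-4104746 on the minus strand and Insig1 (ENSMUSG00000045294.11) at chr5:28071363-28078662 on the plus strand. Values are sums over the exons of each gene.

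Promoter sequence from RefSeq (GRCm38.p6), running from 250 bases before to 50 bases after the transcript start, was at hand for 5 of the 8 genes: Hmgcs1, Idi1, Lss, Cyp51 and Insig1. These were searched on both strands for the core of a sterol regulatory element (TCACNCCA), the box bound by NF-Y (CCAAT), the box bound by Sp1 (GGGCGG) and an E-box (CACGTG), and none of the 21 matches overlapped another. The sterol element core was found in 1 of 5 promoters, that of Hmgcs1, against 4.36% of 32851 mouse promoters of this length. CCAAT was found in 5 of 5, against 37.4% of all promoters, and GGGCGG in 5 of 5, against 35.7%. CACGTG was found in 1 of 5, that of Insig1, against 7.15%. The promoters of Hmgcs1, Idi1 and Insig1 are shown because they differ in this respect and belong to the most abundant gene, the gene with the largest tissue difference and the regulator. Each reads 5′ to 3′ along the gene's own strand, with TCACNCCA and CCAAT matches (ATTGG where the match is on the opposite strand) in capitals.
Hmgcs1, chr13:119690101-119690400, plus strand: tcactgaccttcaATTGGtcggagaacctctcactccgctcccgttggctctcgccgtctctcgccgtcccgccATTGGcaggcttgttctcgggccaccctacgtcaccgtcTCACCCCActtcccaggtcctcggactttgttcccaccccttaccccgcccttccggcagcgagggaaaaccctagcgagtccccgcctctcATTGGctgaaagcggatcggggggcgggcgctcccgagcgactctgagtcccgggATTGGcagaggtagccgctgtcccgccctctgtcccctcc
Idi1, chr13:8885356-8885655, plus strand: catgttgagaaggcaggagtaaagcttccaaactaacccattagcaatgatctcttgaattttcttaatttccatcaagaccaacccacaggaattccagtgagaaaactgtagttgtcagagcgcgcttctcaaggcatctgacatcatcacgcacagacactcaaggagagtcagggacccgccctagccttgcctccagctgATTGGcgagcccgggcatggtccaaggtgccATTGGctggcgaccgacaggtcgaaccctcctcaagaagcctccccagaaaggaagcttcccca
Insig1, chr5:28071162-28071461, plus strand: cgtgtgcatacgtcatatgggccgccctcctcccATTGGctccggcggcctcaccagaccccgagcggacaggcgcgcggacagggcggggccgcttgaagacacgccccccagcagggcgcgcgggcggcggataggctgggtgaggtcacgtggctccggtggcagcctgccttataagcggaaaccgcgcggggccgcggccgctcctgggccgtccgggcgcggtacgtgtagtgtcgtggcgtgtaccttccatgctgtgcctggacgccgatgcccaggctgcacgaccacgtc
The sterol element match of Hmgcs1 (TCACCCCA) begins 137 bases before the start, between CCAAT matches at 176 and 45 bases before it. Idi1 has 2 CCAAT matches, at 45 and 14 bases before the start, and Insig1 has 1, at 216 bases before it. A match describes letters only, and no binding was measured.

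Library totals were 18577097 to 22293812 counts in the bladder and 24447435 to 29698009 in the urethra, so that all urethra libraries were deeper. The 6 mesenchyme markers (Col1a1, Col1a2, Col3a1, Dcn, Pdgfra, Vim) were present in all 16 libraries, at a summed level in CPM (counts scaled to a common library total) of 16102 to 20269 in bladder and 10022 to 12196 in urethra libraries. The markers did not move as one: 4 of 6 were lower in the urethra and 1, Pdgfra, was higher (median log2 fold change −0.38, from −1.16 to 2.21). Their mean log2 CPM overlapped, at 10.45 to 10.80 in bladder and 10.40 to 10.67 in urethra libraries. Epithelial markers remained in both tissues in spite of the dissection, with none of 14 at 0 in any library, and their summed level was 2118 to 5235 CPM in bladder and 676 to 2413 in urethra libraries. Of the epithelial markers 10 of 14 were lower in the urethra and 1 was higher, with a median log2 fold change of −1.25. All 8 smooth muscle markers were lower in the urethra (median −3.31), all 8 skeletal muscle markers were higher (median 5.44), all 7 neuronal markers were higher (median 3.94), all 7 glial markers were higher (median 2.13) and all 5 endothelial markers were higher (median 0.76). Of 7 proliferation markers 6 were lower in the urethra (median −0.54), with a summed 1518 to 1692 CPM in bladder and 1060 to 1230 in urethra libraries. Of 5 macrophage markers 2 were higher and 1 was lower, and of 6 red blood cell markers none was higher and 4 were lower. Over all genes tested 36.5% were called higher in the urethra and 38.5% lower, and the count of each list is read against these shares. The tissues thus differed in make-up and in cycling genes as well as in the cholesterol genes, and the part of these differences in the results below was not tested. In bulk RNA of this kind, fewer cells of a type and less RNA per cell cannot be told apart.

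All 8 cholesterol genes were lower in the urethra than in the bladder. The urethral mean ran from 48.3% of the bladder mean for Idi1 to 88.4% for Fdft1. For 5 genes (Hmgcs1, Idi1, Fdps, Lss and Insig1) every urethra library was below every bladder library, while Fdft1, Sqle and Cyp51 overlapped. The share of all genes whose tissues did not overlap was not counted, so 5 of 8 cannot be set against it. The median log2 fold change of the 8 genes was −0.43, against −0.03 over all 18254 genes tested. Tissue differences were common: edgeR's quasi-likelihood test called 75% of all genes at a Benjamini-Hochberg adjusted p under 0.05, and 38.5% of all genes were called lower in the urethra. The count of 8 of 8 is read against that share. Log2 fold changes below are urethra minus bladder and are given with a standard error from 8 libraries per tissue.

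**Figure D1:**
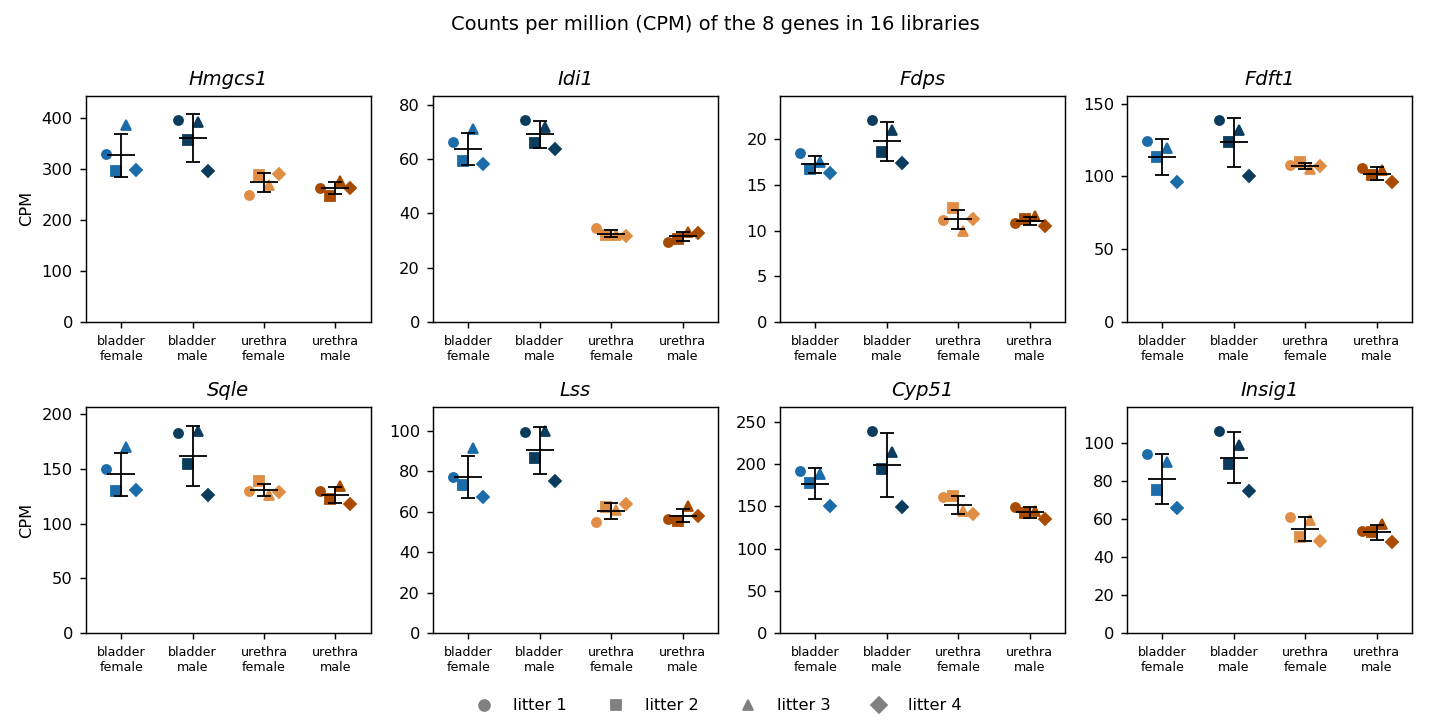
CPM (vertical axis, from 0) of each of the 8 genes in the 4 groups. Each point is 1 library, and its shape gives the litter. The horizontal line is the mean of 4 libraries, and the capped bars reach 1 SD above and below it. The urethra libraries of Idi1 lie at 29.5 to 34.4 CPM and all bladder libraries at 58.1 to 74.4 CPM, while the ranges of Fdft1, Sqle and Cyp51 overlap between the tissues.

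Levels per exon length put the genes in one order that the tissues largely shared. Hmgcs1, the enzyme that joins acetyl-CoA to acetoacetyl-CoA to make HMG-CoA, had the highest level in all 16 libraries, at 74.8 ± 9.78 CPM per kilobase of exon in the bladder and 58.4 ± 3.45 in the urethra (SD, n = 8 libraries). Cyp51, the sterol 14-demethylase, was second in all 16 libraries, at 42.6 ± 6.82 CPM per kilobase in the bladder and 33.4 ± 2.15 in the urethra. Fdft1 (28.8 ± 3.57), Insig1 (28.0 ± 4.44) and Sqle (27.6 ± 4.29) shared the next places in the bladder, where their CPM per kilobase differed by less than their SD. In the urethra Fdft1 (25.4 ± 1.05), Sqle (23.2 ± 1.19) and Insig1 (17.4 ± 1.603) were spread further apart on the same scale. Idi1 (18.9 ± 1.67 and 9.13 ± 0.44), Lss (7.76 ± 1.15 and 5.49 ± 0.33) and Fdps (4.40 ± 0.48 and 2.65 ± 0.18) came sixth, seventh and eighth in every library. Exon length here covers all annotated exons of a gene, 10787 bases for Lss and 3505 for Idi1, and the order depends on it. In CPM without that division, Lss (mean 83.7 in the bladder and 59.2 in the urethra) was above Idi1 (66.3 and 32.0). The level of Fdps is uncertain: 1124 of its 4208 exon bases (26.7%) are shared on the same strand with the readthrough gene Gm43738, and read pairs over more than 1 gene were left uncounted. Gm43738 had 0 counts in all 16 libraries.

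The enzymes that lead from acetyl-CoA to farnesyl diphosphate held the 2 largest differences, those of Idi1 and Fdps. Hmgcs1 had 295, 343 and 396 CPM as the lowest, median and highest of 8 bladder libraries and 247, 266 and 290.0 CPM in the urethra. Its groups did not overlap, although the highest urethra library (female, litter 4, 290.0 CPM) came close to the lowest bladder library (female, litter 2, 295 CPM). The log2 fold change of Hmgcs1 was −0.36 ± 0.07 (edgeR adjusted p = 1.41e-04). Idi1, the isomerase that turns isopentenyl into dimethylallyl diphosphate, had 58.1, 66.1 and 74.4 CPM in the bladder and 29.5, 32.1 and 34.4 in the urethra. No library of Idi1 came near the other tissue's range, and its log2 fold change of −1.05 ± 0.05 (edgeR adjusted p = 1.51e-11) was the furthest from 0 of the 8. Fdps, which makes farnesyl diphosphate, the branch point to cholesterol, ubiquinone and protein prenylation, had 16.3, 18.01 and 22.1 CPM in the bladder and 9.97, 11.3 and 12.5 in the urethra. Its tissues did not overlap, and the log2 fold change was −0.73 ± 0.06 (edgeR adjusted p = 1.65e-08).

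Of the 8 genes, those for the enzymes around squalene had the smallest fold changes. Fdft1, squalene synthase, is the first enzyme committed to sterols. It had 96.1, 121 and 139 CPM as the lowest, median and highest bladder values and 96.1, 106 and 110.0 CPM in the urethra. The 2 bladder libraries of litter 4, at 96.1 and 100.1 CPM, reached the lower end of the urethra range, and the other 6 lay above it. The log2 fold change of Fdft1 was −0.18 ± 0.06 (edgeR adjusted p = 0.0164), and this call was lost when any 1 of 5 bladder libraries was left out (female litters 1, 2 and 3, male litters 1 and 3; highest adjusted p 0.0993). It was also lost with DESeq2 (−0.15, adjusted p = 0.0525) and with library totals as the scaling (−0.04, adjusted p = 0.544). Sqle, squalene epoxidase, which adds oxygen to squalene before the ring is closed, had 126, 152 and 184 CPM in the bladder and 118, 129 and 139 in the urethra. Of the bladder libraries 5 lay above all urethra libraries and 3 lay among them. Its log2 fold change was −0.25 ± 0.08 (edgeR adjusted p = 0.00612), and −0.12 (adjusted p = 0.161) with library totals as the scaling. Without the expression filter, Sqle was −0.19 (adjusted p = 0.0760) and Fdft1 −0.11 (adjusted p = 0.168).

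The enzymes that close and trim the sterol ring lay between. Lss, lanosterol synthase, had 67.2, 81.9 and 99.7 CPM in the bladder and 54.9, 59.2 and 64.0 in the urethra, with no overlap. Its log2 fold change was −0.49 ± 0.07 (edgeR adjusted p = 5.24e-06). Cyp51, which removes the 14-methyl group of lanosterol, had 149, 190 and 239 CPM in the bladder and 135, 144 and 162 in the urethra. Both bladder libraries of litter 4 (150 and 149 CPM) fell inside the urethra range of Cyp51. The log2 fold change was −0.35 ± 0.08 (edgeR adjusted p = 7.32e-04).

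Insig1, the endoplasmic reticulum protein that retains SCAP when sterol is plentiful, was also lower in the urethra. It had 65.5, 89.2 and 106 CPM in the bladder and 47.7, 53.3 and 61.0 in the urethra, and its tissues did not overlap. Its log2 fold change was −0.68 ± 0.09 (edgeR adjusted p = 1.66e-06), the third in size after Idi1 and Fdps. Insig2, its close relative, was at −0.18 ± 0.05 (adjusted p = 0.00187, and −0.05 with adjusted p = 0.360 on library totals). The ratio of Insig1 to Insig2 per exon length, which no library scaling can move, was 1.99 to 3.27 in the bladder (median 2.78) and 1.65 to 2.37 in the urethra (median 1.85), and these ranges overlapped.

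Idi1 and Fdft1, the genes with the largest and the smallest fold change of the 8, were set against each other after their values were seen, so their ratio is a description. The ratio of Idi1 to Fdft1 per exon length, which is free of library scaling, was 0.614 to 0.748 in the bladder and 0.327 to 0.402 in the urethra, with no overlap. Both genes fell, by 1.05 and 0.18 on the log2 scale.

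Within each litter and sex, bladder and urethra came from the same embryos, and the difference could be read pair by pair. For Hmgcs1, Idi1, Fdps, Lss, Cyp51 and Insig1 the urethra was lower in 8 of 8 pairs. For Fdft1 it was lower in 7 of 8, the exception being females of litter 4 (96.1 CPM in the bladder and 107 in the urethra). For Sqle it was lower in 7 of 8, the exception being females of litter 2 (129 CPM and 139 CPM). Such pair counts were not made over all genes, so no share stands beside them. Idi1 differed by −0.88 to −1.33 on the log2 CPM scale and Insig1 by −0.43 to −0.99, so no pair of either was near 0. In Lss the pairs ran from −0.07 (females of litter 4) to −0.81 (males of litter 1), and in Hmgcs1 from −0.04 (females of litter 4) to −0.59 (males of litter 1).

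**Figure D2:**
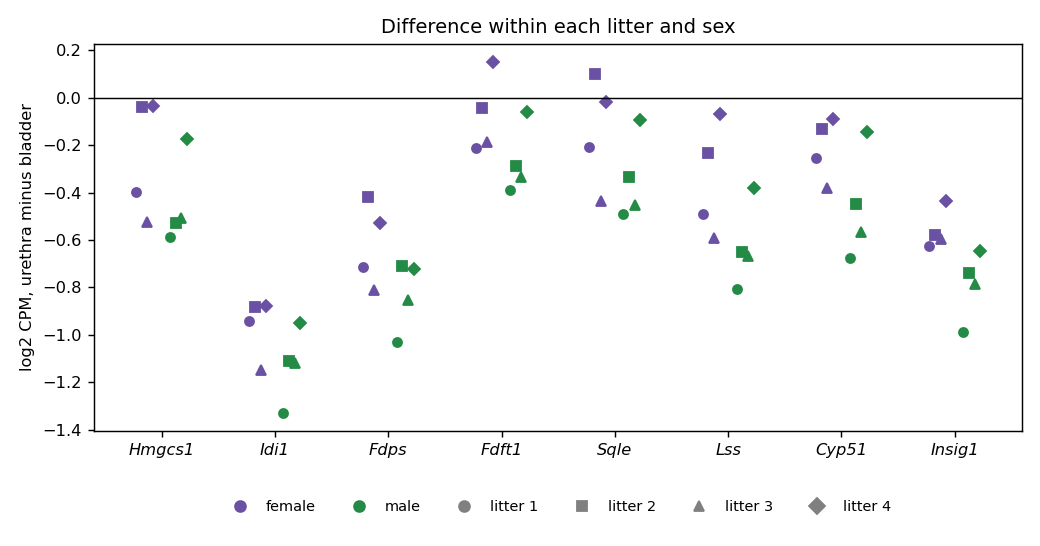
Urethra minus bladder in log2 CPM (vertical axis) for each gene, 1 point per litter and sex; colour gives the sex and shape the litter. Points of Idi1 lie between −1.33 and −0.88, and only 1 point of Fdft1 and 1 of Sqle lie above 0.

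The difference between tissues was then read in each sex. In females 5 of 8 genes were lower in the urethra (against 33.1% of all genes called lower, 32.6% called higher and 65.7% in either direction), and in males 8 of 8 (against 32.6% lower, 31.4% higher and 64% in either direction). The median log2 fold change of the 8 genes was −0.30 in females and −0.56 in males. The female median was −0.20 without the bladder library of litter 3, −0.19 without litter 3 in all groups and −0.18 on library totals. Idi1 was −0.97 ± 0.07 in females and −1.13 ± 0.07 in males, Insig1 −0.57 ± 0.12 and −0.80 ± 0.12, and Fdps −0.62 ± 0.09 and −0.84 ± 0.09. Lss was −0.35 ± 0.10 and −0.63 ± 0.10, and Hmgcs1 −0.25 ± 0.10 and −0.46 ± 0.10. The 3 genes that did not pass in females were Fdft1 (−0.08 ± 0.09, edgeR adjusted p = 0.447), Sqle (−0.15 ± 0.11, adjusted p = 0.231) and Cyp51 (−0.22 ± 0.11, adjusted p = 0.0947). With the litter as a replicate block, Cyp51 did pass in females (−0.21, adjusted p = 0.0206), and with blocks by litter and sex its adjusted p was 0.0285; it also passed without the male bladder library of litter 4 (adjusted p = 0.0278). In males these genes were at −0.28 ± 0.09 (Fdft1, adjusted p = 0.0114), −0.36 ± 0.11 (Sqle, adjusted p = 0.00772) and −0.48 ± 0.11 (Cyp51, adjusted p = 0.00125). The call of Hmgcs1 in females (adjusted p = 0.0265) was lost under 9 settings, 2 of them without a whole litter (litter 1 or 3). In the others, its fold change was −0.24 without the bladder library of litter 1 (adjusted p = 0.0673) or the urethra library of litter 3 (0.0588), −0.23 with DESeq2 (0.0700) and −0.21 without the urethra library of litter 1 (0.0784). It was smaller without the filter (−0.18, adjusted p = 0.190), without the bladder library of litter 3 (−0.14, 0.192) and on library totals (−0.13, 0.233). In males, leaving out the bladder library of litter 1 or of litter 3 ended the calls of Fdft1 (adjusted p = 0.107 and 0.0876) and Sqle (0.0694 and 0.0761). Both were also lost in males on library totals (Fdft1 0.184 and Sqle 0.0833) and without the filter (0.0550 and 0.0537).

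The fold changes were larger in size in males for all 8 genes, but the test of that difference did not pass. Within litters the drop was larger in males in 4 of 4 litters for Fdps, Fdft1, Sqle, Lss, Cyp51 and Insig1 and in 3 of 4 for Hmgcs1 and Idi1. The interaction of tissue and sex was negative for each, from −0.16 ± 0.10 for Idi1 to −0.28 ± 0.14 for Lss, but edgeR called 0 of 8 (adjusted p 0.622 to 0.824; 0 of 8 at an unadjusted p under 0.05; 0 of 8 with DESeq2). The test called 0.668% of all genes, 0.537% with a positive and 0.131% with a negative interaction. Male minus female within the bladder was positive for all 8 genes, from 0.12 ± 0.07 (Idi1) to 0.22 ± 0.10 (Lss), and edgeR called 0 of 8, against 0.581% of all genes (0.247% higher and 0.334% lower in males). In bladder pairs of 1 litter the male library was the higher in 4 of 4 litters for Idi1, Fdps, Fdft1, Lss and Insig1 and in 3 of 4 for Hmgcs1, Sqle and Cyp51. All 14 epithelial markers were also positive in male minus female bladder (median 0.57, from 0.38 to 0.82, 0 called) and in the urethra (median 0.59, 1 called), and their part in the shared sign was not tested. In the bladder comparison edgeR gave Fdps and Lss an unadjusted p under 0.05 (2 of 8 genes), their adjusted values were 0.380 and 0.357, and DESeq2 called 0. Male minus female within the urethra was negative for all 8, from −0.02 ± 0.09 (Fdps) to −0.09 ± 0.11 (Cyp51), with 0 of 8 called by edgeR or DESeq2, 0 at an unadjusted p under 0.05 and 6.39% of all genes called (3.97% higher and 2.42% lower in males). The signs of Fdps, Idi1 and Insig1 in the urethra turned under other settings. The 8 genes move together between libraries, so a shared sign is not 8 separate observations.

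Libraries of 1 group differed from each other more in the bladder than in the urethra in 15 of 16 cases (8 genes in 2 sexes). The exception was Fdps in females, whose coefficient of variation was 5.40% in the bladder and 9.24% in the urethra. The 8 genes move together, so these are not 16 separate observations. The same count was not made over all genes, so a larger spread in the bladder cannot be called particular to these genes. The coefficient of variation of a gene over the 4 libraries of a group was 5.40 to 19.1% in the bladder (median 12.97%) and 1.96 to 11.5% in the urethra (median 5.62%), over 8 genes and 2 sexes each. In the bladder the spread followed litters. Insig1 in the bladder was 94.1, 75.0, 89.6 and 65.5 CPM in females of litters 1 to 4 and 106, 88.9, 98.8 and 74.7 CPM in males. In both sexes litters 1 and 3 were above litters 2 and 4. The same held for Cyp51, at 192, 177, 188 and 150 CPM in females and 239, 194, 214 and 149 CPM in males. For Sqle the values were 150, 129, 170 and 130 CPM in females and 183, 154, 184 and 126 CPM in males, again with litters 1 and 3 above the others. This order held in both sexes of the bladder for 8 of 8 genes, and in the urethra for 1 of 8 in females and 5 of 8 in males. The share of all genes with this order was not counted. Litter 4 was the lowest for 8 of 8 genes in male bladder and 6 of 8 in female bladder. The grouping of litters was chosen after the values were seen, and the labels give no property that sets litters 1 and 3 apart, so no test is given.

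**Figure D3:**
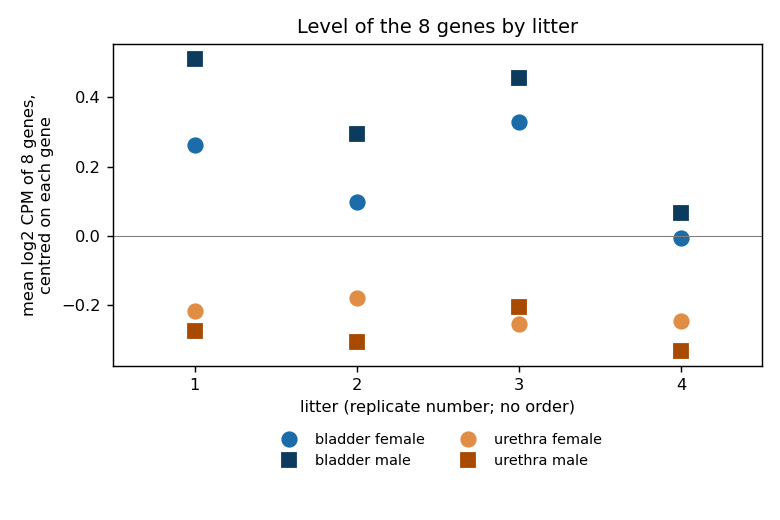
Mean log2 CPM of the 8 genes, each centred on its own mean over 16 libraries (vertical axis), by litter (horizontal axis, replicate numbers without order), 1 point per library coloured by group. Bladder libraries of litters 1 and 3 lie at 0.26 and 0.33 (female) and 0.51 and 0.45 (male), those of litters 2 and 4 at 0.10 and −0.01 (female) and 0.30 and 0.07 (male), and all urethra libraries between −0.33 and −0.18.

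Averaged over the 8 genes, every bladder library was above every urethra library, but litter 4 was the closest to the urethra in both sexes. Marker lists also varied between the litters. In male bladder 4 of 10 lists had litters 1 and 3 above litters 2 and 4, as the 8 genes did. Their mean log2 CPM in litters 1 to 4 was 10.48, 10.25, 10.49 and 10.32 for smooth muscle, 10.53, 10.48, 10.66 and 10.45 for mesenchyme, 5.21, 5.08, 5.52 and 5.17 for endothelium, and 4.18, 4.01, 4.29 and 3.99 for macrophages. In female bladder no list had that order, and red blood cell markers (7.07, 7.09, 6.77 and 7.34) and glial markers (2.45, 2.73, 2.53 and 2.54) had litters 1 and 3 below the others. Epithelial markers were at 7.61, 7.73, 6.76 and 7.17 in females and 7.73, 7.99, 8.03 and 7.96 in males. The part of these cell types in the litter pattern was not tested. With litter 4 left out the median log2 fold change of the 8 genes was −0.51, and with litter 3 left out −0.35.

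The genes varied together. Over 16 libraries the 28 pairs among the 8 genes had a Pearson r of log2 CPM between 0.647 and 0.980 (median 0.880). With the group means subtracted, so that only differences between litters within a group remained, r was 0.499 to 0.967 (median 0.745). Hmgcs1 and Lss were the closest pair on that measure (r = 0.967), followed by Fdft1 and Cyp51 (r = 0.956), and Fdps and Insig1 were the least alike (r = 0.499). These values share libraries, scaling and litters and are given as description.

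Among the genes whose pattern over the 16 libraries was most like the mean of the 8 were Dhcr7 (r = 0.974), Trim16 (0.971), Aacs (0.967) and Nsdhl (0.963), and 379 of 18246 other genes had r over 0.9. With group means subtracted, Hsd17b7 (0.967), Dhcr7 (0.955), Sc5d (0.927), Unc45a (0.902) and Ssr1 (0.901) were among the most alike, and 7 of 18246 genes were over 0.9. Dhcr7, Nsdhl, Hsd17b7 and Sc5d encode enzymes of the same route. Between tissues, Hsd17b7 and Sc5d did not pass the test.

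Other enzymes of the route were read next. Counting 7 of the 8 genes with 13 other enzymes of the route, 16 of these 20 were lower in the urethra and 4 did not pass (median log2 fold change −0.36). These counts are from the fit without a litter block. Among 4 other early enzymes 3 were lower: Pmvk (−0.65 ± 0.06), Mvk (−0.48 ± 0.06) and Mvd (−0.19 ± 0.07), the kinases and the decarboxylase of the mevalonate steps. Mvd lost its call with library totals, with DESeq2, without the filter and without any 1 of 6 libraries. Acat2, which makes acetoacetyl-CoA, was at −0.02 ± 0.05 (adjusted p = 0.691).

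Among the 9 other late enzymes 6 were lower in the urethra and none was higher. The largest differences were those of Msmo1, the sterol 4-methyl oxidase (−0.70 ± 0.09), and Lbr, a sterol reductase that is also the lamin B receptor (−0.58 ± 0.04). Sc5d (−0.01 ± 0.06), Hsd17b7 (−0.05 ± 0.09) and Ebp (−0.13 ± 0.07) did not pass in this fit, which has no litter block. With the litter as a replicate block 7 of the 9 were lower, and likewise with blocks by litter and sex.

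**Figure D4:**
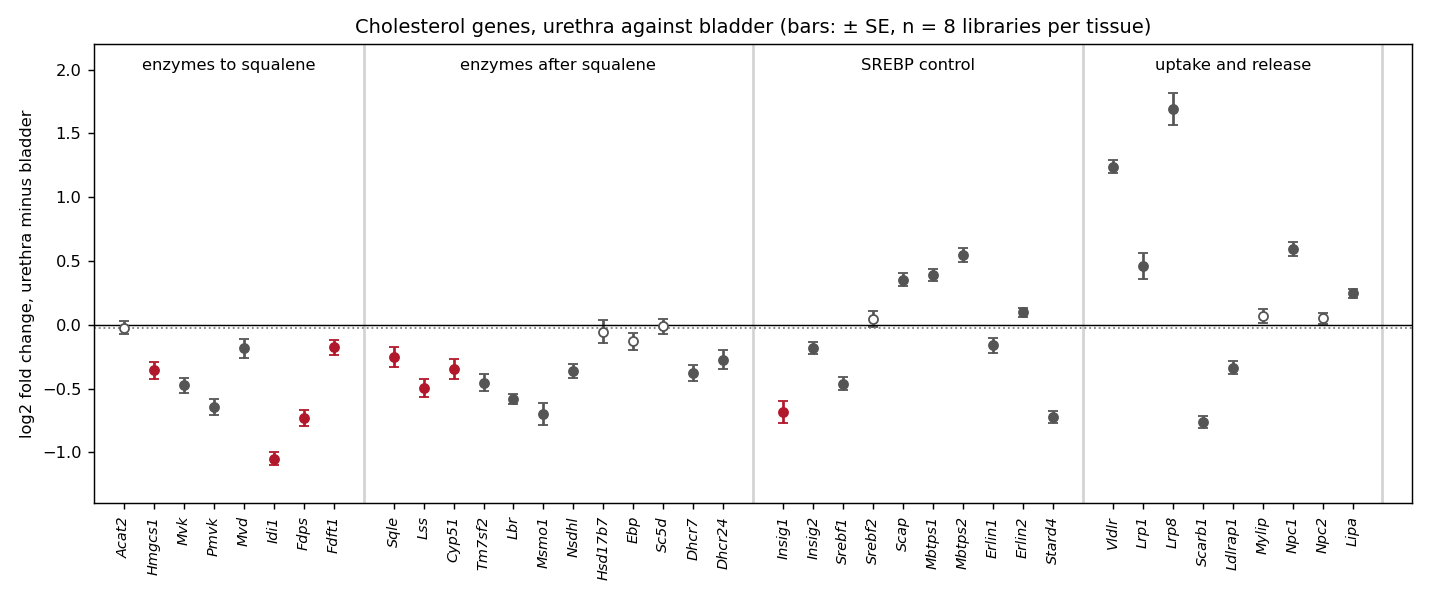
Log2 fold change, urethra minus bladder (vertical axis), with its standard error for the cholesterol genes grouped by role along the horizontal axis (n = 8 libraries per tissue); red marks the 8 genes, filled points have an adjusted p under 0.05, and the dotted line is the median of all genes tested (−0.03). The 8 genes lie from −1.05 (Idi1) to −0.18 (Fdft1), while genes of SREBP control and of uptake lie on both sides of 0.

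Genes that sense sterol and process SREBP were divided, with 4 of 9 higher and 4 of 9 lower in the urethra. Mbtps2 (0.55 ± 0.05) and Mbtps1 (0.39 ± 0.05), the Golgi proteases that cut SREBP, and Scap (0.35 ± 0.05) were higher, as was Erlin2 (0.10 ± 0.03). Stard4, a sterol carrier (−0.72 ± 0.04), Srebf1 (−0.46 ± 0.05), Insig2 and Erlin1 (−0.16 ± 0.06, lost with DESeq2, on library totals, without the filter and without any 1 of 8 libraries) were lower. Srebf2, which encodes SREBP2, was at 0.04 ± 0.06 (adjusted p = 0.555; 0.18 with adjusted p = 0.0153 and thus called higher on library totals), with 217 to 307 CPM in the bladder and 241 to 296 in the urethra. On library totals 5 of 9 were higher, Srebf2 among them, and 2 were lower.

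Of 9 genes of lipoprotein uptake and lysosomal release, 5 were higher in the urethra and 2 were lower. Scarb1, the HDL receptor, was lower (−0.76 ± 0.05). The lipoprotein receptors Lrp8 (1.69 ± 0.12) and Vldlr (1.24 ± 0.05) were higher. Lrp8 is known as a reelin receptor of neurons, the 7 neuronal markers were higher in the same libraries (a summed 1316 to 2180 CPM in the urethra and 38.0 to 363 CPM in the bladder), and their part in the Lrp8 value was not tested. Vldlr had 35.2, 38.6 and 50.3 CPM in the bladder and 74.1, 98.2 and 117 in the urethra.

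Of 8 efflux and oxysterol genes 4 were higher in the urethra and 3 were lower. The cholesterol exporters Abcg1 (1.81 ± 0.10) and Abca1 (1.04 ± 0.09) were higher, and Ch25h, cholesterol 25-hydroxylase (−1.35 ± 0.26), and Nr1h3, the oxysterol receptor LXR alpha (−0.81 ± 0.12), were lower. Neither of the 2 esterification genes tested passed. In the isoprenoid branch that uses the product of Fdps, 3 of 8 genes were higher and 3 were lower, with Ggps1 at 0.23 ± 0.04, Fntb at 0.13 ± 0.04, Pdss1 at −0.47 ± 0.08 and Fnta at −0.30 ± 0.06. Of 11 fatty acid genes under SREBP control 3 were higher, among them Acly (0.30 ± 0.05) and Fasn (0.29 ± 0.10), and 6 were lower, among them Acacb (−1.46 ± 0.12) and Fads2 (−1.03 ± 0.07). On library totals the counts higher and lower were 1 and 2 of the 4 other early enzymes, 0 and 5 of the 9 late enzymes, 7 and 2 of the 9 uptake genes, 4 and 3 of the 8 efflux genes, 2 and 0 of the 2 esterification genes, 3 and 2 of the 8 isoprenoid genes and 5 and 6 of the 11 fatty acid genes, against 45.7% of all genes called higher and 29.5% called lower with that scaling. The other values are edgeR's with TMM scaling over both sexes, against 36.5% of all genes called higher and 38.5% called lower.

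Among the pathway genes listed, 3 were called between the sexes. Over all genes, edgeR called 6.39% between the sexes in the urethra, 0.581% in the bladder and 0.668% in the interaction. Other settings were not read for these 3 genes. Vldlr was higher in male than in female urethra by 0.49 ± 0.07 (edgeR adjusted p = 3.28e-04). Cyp7b1, an oxysterol hydroxylase, was higher in male urethra by 0.46 ± 0.09 (adjusted p = 0.00409), and its interaction of tissue and sex was 0.62 ± 0.13 (adjusted p = 0.0292). Me1, malic enzyme, was higher in male bladder by 0.41 ± 0.09 (adjusted p = 0.0453). None of these is 1 of the 8 genes, and no sex difference in the 8 genes was detectable here.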

How the data were processed

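Per the labels' protocols, libraries were made from poly(A) RNA with a directional kit and sequenced as paired ends. The submitters' processing notes name bcl2fastq, HISAT2 2.1.0 with GRCm38, SAMtools and Subread 1.6.3. The authors' deposited table holds raw counts of read pairs per gene symbol, per the file headers with a reverse-stranded setting and without multimapping reads or reads over more than 1 gene; which GENCODE release was used is not given in the sources. A second deposited table of normalised values was not used here.

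Counts of 55228 symbols in 16 libraries were tested with edgeR 4.0.16 (R 4.3.3, limma 3.58.1): TMM scaling, filterByExpr (18254 genes kept), robust quasi-likelihood fits of the 4 groups together, and Benjamini-Hochberg adjustment over all genes tested with a threshold of 0.05. Standard errors are the size of the log2 fold change over the square root of F, an approximation. CPM use TMM-scaled totals, and log2 CPM a prior count of 2. Figures used Python 3.11.15, pandas 2.3.3 and matplotlib 3.10.9. Libraries of a group were no copies of each other (chi-squared per degree of freedom 4.55 to 34.03 over 24 pairs). The test was also run on simulated data in which few genes changed and litters had no effect. That run does not cover data in which most genes differ and litters are shared between groups.

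Replicate numbers mark litters, per the labels. Within a litter and sex, deviations of the bladder and the urethra library from their group means had r of 0.09 to 0.41 (median 0.19, 7 of 8 over 0.1). For other litters r was −0.40 to 0.35 (median −0.06, 2 of 24 over 0.1). Female and male libraries of 1 tissue and litter had r of −0.05 to 0.27 (median 0.12, 4 of 8 over 0.1). For other litters these were −0.25 to 0.17 (median −0.04, 2 of 24 over 0.1). The fit has no litter block, and fits with it were alternatives, beside DESeq2 1.42.0, other scalings, no filter, each library left out and, added after the data were seen, each litter left out. The members and the gene lists (142 genes in all, markers included) were chosen with earlier results of these data known, so no list test or p adjusted over a list is given. Named are the 8 genes, in each pathway list up to 2 genes that rose most and 2 that fell most, any listed gene called between the sexes, and genes from the 6 most alike on each measure; other genes were named after their values were seen. Some genes of the pathway and of the most alike are not reported here and are left out of the list counts.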

Additional observations from a re-analysis of the deposited data

How the results depend on the processing

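Under every setting tried the number of the 8 genes called lower in the urethra was 6 to 8 over both sexes, 4 to 6 in females and 6 to 8 in males, and none was called higher. No gene was called between the sexes or in the interaction under any setting. With the litter as a replicate block the counts were 8, 6 and 8, and with a replicate block by litter and sex they were the same, but that fit gives no male minus female value. Scaling by library totals alone moved the median of all genes by 0.14 on the log2 scale, from −0.03 to 0.11, and the share of called genes that were higher from 48.7% to 60.8%. The median of the 8 genes moved from −0.43 to −0.29. Its distance to the median of all genes was −0.40 both ways, which a change of scaling alone can hardly move, since it shifts all genes alike. With DESeq2, where the median of all genes was taken over 34011 genes, the distance was −0.23. On library totals Fdft1 in females was 0.0501 and Fdps for male minus female in the urethra 0.0128, opposite in sign to −0.08 and −0.02. The median male minus female of the 8 genes in the urethra was −0.02 on library totals. Leaving out 1 library gave Insig1 for male minus female in the urethra −0.105 to 0.0064 and Fdps −0.0778 to 0.0300. Leaving out 1 litter gave Idi1 −0.0858 to 0.0118, Insig1 −0.0909 to 0.0019 and Fdps −0.107 to 0.0188 in that comparison. Without 1 litter at a time, the call of Fdft1 was lost for 3 of 4 litters over both sexes and 3 of 4 in males, Sqle for 2 and 1, and Hmgcs1 in females for 2. The cause of these changes was not tested. Fdps, the least counted of the 8 genes, had at least 295 counts in every library.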
